A study of Mus musculus with 10 samples.

Results

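The liver takes up, stores, burns and makes glucose, and a set of 33 genes for these routes was described in livers of mice carrying human APOE3 or human APOE4. The genes were chosen by function: 13 for glycolysis, 7 for gluconeogenesis and glucose export, 6 for glycogen, 4 for the pentose phosphate pathway and 3 for fructose entry and pyruvate handling. A gene was followed through array probe sets annotated with its symbol and no other, and where several existed, the brightest on average over the 10 arrays stood for the gene. By that rule 29 of the 33 genes had a probe set, and 27 of these were tested among 8535 genes in all. Gpi1, Pfkfb1, Eno1 and G6pdx were not analysed here, Pfkfb3 lay below the filter on low values, and Gapdh was read only by the control probe sets of the array.

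Total liver RNA from 10 female mice was measured with 1 extract and 1 array per animal. The mice were homozygous for a human APOE3 replacement (B6.129P2-Apoetm2(APOE*3)Mae N8, n = 5) or a human APOE4 replacement (B6.129P2-Apoetm3(APOE*4)Mae N8, n = 5) of the mouse Apoe gene, which encodes a lipoprotein ligand. Both groups were 3 months old, were on a C57BL/6 background and expressed human APOE from the murine Apoe promoter, so neither group carried the mouse gene. Both ate a semi-synthetic diet with sucrose (32.8%), butter fat (21.2%) and 2 g/kg of cholesterol, with 41% of the energy from milk fat, for a time given as 6 weeks in the design text and as 2 months in the growth protocol. The state of feeding at the time the livers were taken is not given in the sources used here. The comparison addresses how hepatic transcripts of carbohydrate metabolism stand in APOE4 against APOE3 animals, and P-values measure only the spread between these animals.

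Glycolysis splits glucose to pyruvate, with liver pyruvate kinase (Pklr) as its last step, while gluconeogenesis runs the other way through pyruvate carboxylase (Pcx), phosphoenolpyruvate carboxykinase (Pck1 in the cytosol, Pck2 in mitochondria), fructose bisphosphatase (Fbp1) and glucose 6-phosphatase (G6pc). Glycogen stores glucose between meals, and the pentose phosphate pathway makes NADPH for lipid synthesis and rearranges sugars through transketolase (Tkt) and transaldolase (Taldo1). In liver, transcription of Pklr is known to follow sugar and insulin through the factor ChREBP, and transcription of Pck1 and G6pc is known to follow glucagon and fasting through cAMP.

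No gene of the set passed for a difference between genotypes once p-values were adjusted, in any of its tested probe sets. The results turn instead on how the genes varied from animal to animal, and the promoters of 5 genes show the kinds of sequence that stand upstream of them. Taldo1 and Tkt are shown because they were the only pair of 12 tested whose covariation passed, Pklr as a sugar-regulated gene, and Pck1 and G6pc as fasting-regulated genes with wide spread. Each sequence covers the 200 bases before a RefSeq transcript start (GRCm38.p6), 5′ to 3′ on the gene's strand. Capitals in Pklr mark a match to the carbohydrate response element, a pair of E-box-like sites, in Pck1 the cAMP response core ACGTCA, and in Taldo1 and Tkt their longest shared run; G6pc has no capitals.
Taldo1: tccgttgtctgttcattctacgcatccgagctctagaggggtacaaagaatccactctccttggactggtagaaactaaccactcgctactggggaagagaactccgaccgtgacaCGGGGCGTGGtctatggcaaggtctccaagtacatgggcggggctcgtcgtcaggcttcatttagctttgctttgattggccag
Tkt: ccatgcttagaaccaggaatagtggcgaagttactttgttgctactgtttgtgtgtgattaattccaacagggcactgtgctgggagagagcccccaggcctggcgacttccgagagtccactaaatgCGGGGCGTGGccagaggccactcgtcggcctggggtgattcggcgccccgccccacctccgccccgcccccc
Pklr: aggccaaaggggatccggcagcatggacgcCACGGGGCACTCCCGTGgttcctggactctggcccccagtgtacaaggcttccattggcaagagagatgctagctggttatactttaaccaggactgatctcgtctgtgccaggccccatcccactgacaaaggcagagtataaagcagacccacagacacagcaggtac
Pck1: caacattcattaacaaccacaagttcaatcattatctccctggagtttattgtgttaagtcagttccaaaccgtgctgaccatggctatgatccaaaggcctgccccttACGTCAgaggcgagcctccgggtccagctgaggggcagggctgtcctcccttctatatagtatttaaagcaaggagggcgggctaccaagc
G6pc: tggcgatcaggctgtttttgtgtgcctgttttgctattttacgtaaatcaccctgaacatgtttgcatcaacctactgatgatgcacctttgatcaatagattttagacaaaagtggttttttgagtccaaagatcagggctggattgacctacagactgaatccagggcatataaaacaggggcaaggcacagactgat
The windows lie at chr7:141391960-141392159 for Taldo1, chr14:30548931-30549130 for Tkt, chr3:89136423-89136622 for Pklr, chr2:173152873-173153072 for Pck1 and chr11:101367516-101367715 for G6pc, all on the plus strand. Pklr has 2 listed starts, and the second is shown.

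Motifs were searched on both strands in the 250 bases before each start, in 37 windows of 27 members and in 32851 windows of all genes. These 27 are not the 27 tested genes but those of the 29 members with a probe set that had a window. Pfkfb3 and Gapdh were thus included, and Gys2 and Ppp1r3b, which had no window, were not searched. The Pklr element, which spans bases -170 to -154 from the start shown, occurred in 1 member window and in 13 of all windows (0.0396%). The core ACGTCA, at bases -91 to -86 of Pck1, was in 13.5% of member windows and 6.47% of all windows. The E-box CACGTG was in 13.5% of member windows, those of Khk, Ldha, Pcx, Pfkfb3 and Ppp1r3c, against 6.02% of all. The hypoxia response core ACGTG, which every E-box CACGTG also holds, was in 35.1% against 16.6%. The forkhead letters GTAAACA were in 0 of 37 member windows against 3.17% of all, and TGACNNNGC, the antioxidant response core, was in 8.11% against 10.2%. The 10-base run shared by Taldo1 and Tkt was in 0.362% of all windows, Pdha1 included. The carbohydrate response element and the shared run were chosen after the sequences were seen. These matches describe letters in a window and are not measured binding sites.

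The samples carried liver RNA, 1 of them also carried muscle transcripts, and replicate 1 of each genotype had the highest sum of adipocyte markers. Of 15 hepatocyte markers none was under a log2 value of 4 on all arrays, though Ass1, a urea cycle gene, was under 4 on all but APOE3 replicate 4. Their summed level was 17.2 to 17.5 log2 in APOE3 and 17.3 to 17.4 in APOE4. Of 5 cholangiocyte markers, 4 were under 4 on all arrays. The skeletal muscle markers summed to 9.44 log2 in APOE4 replicate 3, against 5.42 to 5.57 in the 9 other animals. Acta1 was at 7.65 and Myh1 at 8.20 in that liver. Of the 8 muscle markers, 3 (Ckm, Myh4 and Pygm) were under 4 on all arrays. Of 4 adipocyte markers, 2 (Adipoq and Lep) were under 4 on all arrays. Car3 was at 13.92 in APOE3 replicate 1 and 13.93 in APOE4 replicate 1, against at most 13.74 in the others. Fabp4 was at 9.78 and 9.51 in those livers, against at most 9.43. Adipoq was at 3.60 in APOE4 replicate 1 and at most 1.69 elsewhere, and lowest in APOE3 replicate 1 (1.33). Those livers were also the highest of their genotypes in Pgd, Taldo1 and Tkt. Of 14 Kupffer cell and macrophage markers, 12 had differences below 0 (median -0.22 log2, 0 past the threshold in limma), and their summed level was 13.2 to 14.3 in APOE3 and 13.0 to 13.9 in APOE4. APOE3 replicate 4 had the highest sum, with Marco at 9.99 against at most 6.62 and Timd4 at 8.36 against at most 6.34. Cd163, on the same list, went the other way and was lowest in that liver, at 6.37 against 8.22 to 9.36. Stellate cell and fibroblast markers summed to 11.8 to 12.4 over all animals, with Col3a1 from 5.93 to 10.46. The difference between 3′ and 5′ control probe sets of Gapdh, larger where the 5′ part of a transcript is read less well, was largest in APOE3 replicate 2 (0.73 log2) and APOE4 replicate 4 (0.62) and 0.20 to 0.55 in the others. The part of these differences in the results below was not tested, except where values without those animals are given. In bulk RNA, fewer cells of a type cannot be told apart from less RNA per cell.

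For most of the 27 tested genes the difference between genotypes was small. Larger ones, such as those of G6pc (0.93 log2) and Pklr (0.48), had wide 95% intervals that crossed 0. Of the 27, 18 had a difference above 0 (APOE4 minus APOE3) and 9 below, 16 were within 0.1 log2 of 0, and 21 within 0.2. Over all tested probe sets 60.9% had a difference above 0. The median difference was 0.044 log2, beside 0.047 over all tested probe sets; it turned to -0.012 when each array was centred on its own median, where that of all tested probe sets was -0.0099. The median SE of a member's difference was 0.14 log2 with 5 animals per genotype. In limma with Benjamini-Hochberg adjustment 0 of the 27 genes passed the threshold of 0.05, where 0.0815% of all 14732 tested probe sets did (0.0339% higher in APOE4 and 0.0475% lower). An unadjusted limma p under 0.05 was found for 0 of the 27, beside 8.00% of all probe sets (5.53% higher and 2.46% lower). Their limma adjusted p ran from 0.653 to 0.998. In 0 of the 27 did all values of one genotype lie above all of the other, beside 2.02% of all probe sets.

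**Figure D1:**
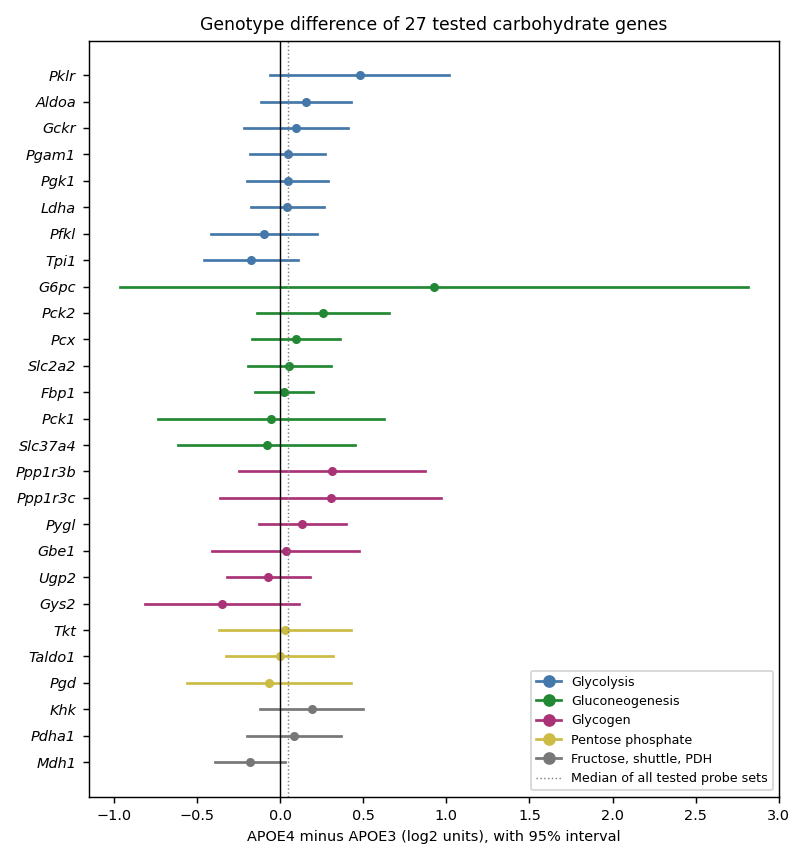
Difference between genotypes for the 27 tested genes, as APOE4 minus APOE3 in log2 units on the horizontal axis, with 95% confidence intervals from limma (n = 5 per genotype), genes grouped by role in colour, and a dotted line at the median of all tested probe sets. All 27 intervals cross 0, and that of G6pc, from -0.96 to 2.82, is the widest.

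Among the 8 tested glycolysis genes, 6 differences were above 0 and 2 below, with a median of 0.045 log2. Pklr, which makes pyruvate and ATP in the last step, had the smallest p of the set. Its log2 level was 7.76, 6.89, 7.04, 6.99 and 7.83 in APOE3 replicates 1 to 5. In APOE4 replicates 1 to 5 it was 8.34, 7.53, 7.88, 7.23 and 7.93. The APOE4 values were mostly in the upper part of the joint range, but replicates 1 and 5 of APOE3 lay among them and the groups overlapped. The means were 7.30 ± 0.46 and 7.78 ± 0.42 (SD, n = 5 each), a difference of 0.48 log2 (SE 0.25, 95% interval -0.06 to 1.02), or 1.39-fold, with a limma adjusted p of 0.653. A second, dimmer Pklr probe set differed by 0.83 log2, with an unadjusted limma p of 0.045 and an adjusted p of 0.612.

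Tpi1, triose phosphate isomerase, which interconverts the products of the aldolase step, had the lowest difference of the glycolysis genes. Its levels were 11.60, 11.52, 11.86, 11.66 and 11.93 log2 in APOE3 and 11.46, 11.34, 11.81, 11.34 and 11.74 in APOE4. The groups overlapped, and the difference was -0.17 (limma adjusted p = 0.745). Aldoa, the aldolase that splits fructose bisphosphate outside the liver's own isoform, stood at 9.24, 9.33, 9.08, 9.38 and 9.03 in APOE3 and 9.66, 9.32, 9.48, 9.06 and 9.31 in APOE4. That is a difference of 0.16, or of 0.08 without APOE4 replicate 1, with overlapping groups. The other tested genes here were Gckr, the inhibitor of glucokinase, Pfkl, the liver phosphofructokinase, and Pgk1, Pgam1 and Ldha, which encode phosphoglycerate kinase, phosphoglycerate mutase and lactate dehydrogenase A.

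Probe sets of 1 gene did not always give the same difference. Of 52 tested member probe sets, 3 had an unadjusted limma p under 0.05, all with differences above 0, where 8.00% of all tested probe sets had such a p and 5.53% in that direction. Their smallest adjusted p was 0.565. Beside that of Pklr these were a Pgk1 probe set at 0.34 log2, while the brightest Pgk1 probe set was at 0.04, and a Pfkl probe set at 0.31, while the brightest was at -0.10. In that Pfkl probe set all APOE4 values lay above all APOE3 values, the only such case of the 52, where 2.02% of all probe sets were so separated. Over animals, the pair of brightest Pfkl probe sets had r = 0.430 in their deviations from the genotype mean, and in the other 11 genes with several tested probe sets r was 0.784 to 0.955. Gapdh, the glyceraldehyde phosphate dehydrogenase, was at 12.59 ± 0.14 in APOE3 and 12.58 ± 0.17 in APOE4 in its 3′ control probe set (SD, n = 5 each, exact permutation p = 0.960, two-sided). Pfkfb3, which makes an activator of phosphofructokinase, was at 3.59 ± 0.45 and 3.35 ± 0.31 (SD, n = 5 each, exact permutation p = 0.333), near the floor of these values.

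G6pc, which releases free glucose for export, varied most between animals. Its log2 levels were 9.94, 6.37, 11.89, 10.71 and 10.39 in APOE3 replicates 1 to 5. In APOE4 they were 10.63, 9.46, 11.75, 11.34 and 10.74. Replicate 2 was the lowest animal in both genotypes and replicate 3 the highest, and the groups overlapped. The SD was 2.08 in APOE3 and 0.87 in APOE4, and the SD within genotypes of 1.59 exceeded that of 99.8% of tested probe sets. The difference was 0.93 log2 (SE 0.86, 95% interval -0.96 to 2.82, limma adjusted p = 0.801), and without APOE3 replicate 2 it was 0.05.

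Pck1, which commits oxaloacetate to glucose, also ranged widely; it and Slc37a4 are named for values seen in the data and not by the rule. Pck1 stood at 12.03, 12.49, 13.33, 13.54 and 13.21 log2 in APOE3. In APOE4 it stood at 12.21, 12.63, 13.16, 12.90 and 13.44. In both genotypes replicate 1 was lowest and replicate 2 next, and the groups overlapped almost fully. The difference was -0.05 log2 (95% interval -0.73 to 0.63), and the SD within genotypes was 0.56 in this probe set and 1.01 in the next brightest. Over all tested probe sets the median of that SD was 0.23 and the 90th percentile 0.46, which 3 of the 27 genes exceeded: G6pc, Pck1 and Ppp1r3c.

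The other gluconeogenesis genes were tighter. Pcx, which makes oxaloacetate from pyruvate, was at 11.34, 10.88, 11.36, 11.42 and 11.30 log2 in APOE3 and 11.20, 11.51, 11.27, 11.34 and 11.46 in APOE4. APOE3 replicate 2 lay below all other animals, and the rest overlapped. Pck2 was at 4.94, 5.28, 4.52, 4.74 and 4.53 in APOE3 and 5.56, 4.86, 4.80, 5.05 and 5.01 in APOE4, with a difference of 0.26 (limma adjusted p = 0.733), or of 0.13 without APOE4 replicate 1. It was the lowest member tested and lay near the filter. Slc37a4, the carrier that brings glucose 6-phosphate to the phosphatase, was at 9.78, 10.22, 10.54, 10.61 and 10.94 in APOE3 and 10.03, 10.38, 10.73, 9.79 and 10.75 in APOE4. These groups overlapped as well. Fbp1 had an SD within genotypes of 0.07 log2, at the 1.19 percentile of tested probe sets, and the glucose transporter Slc2a2 one of 0.17. In all, 5 of 7 differences were above 0, and their median was 0.056.

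**Figure D2:**
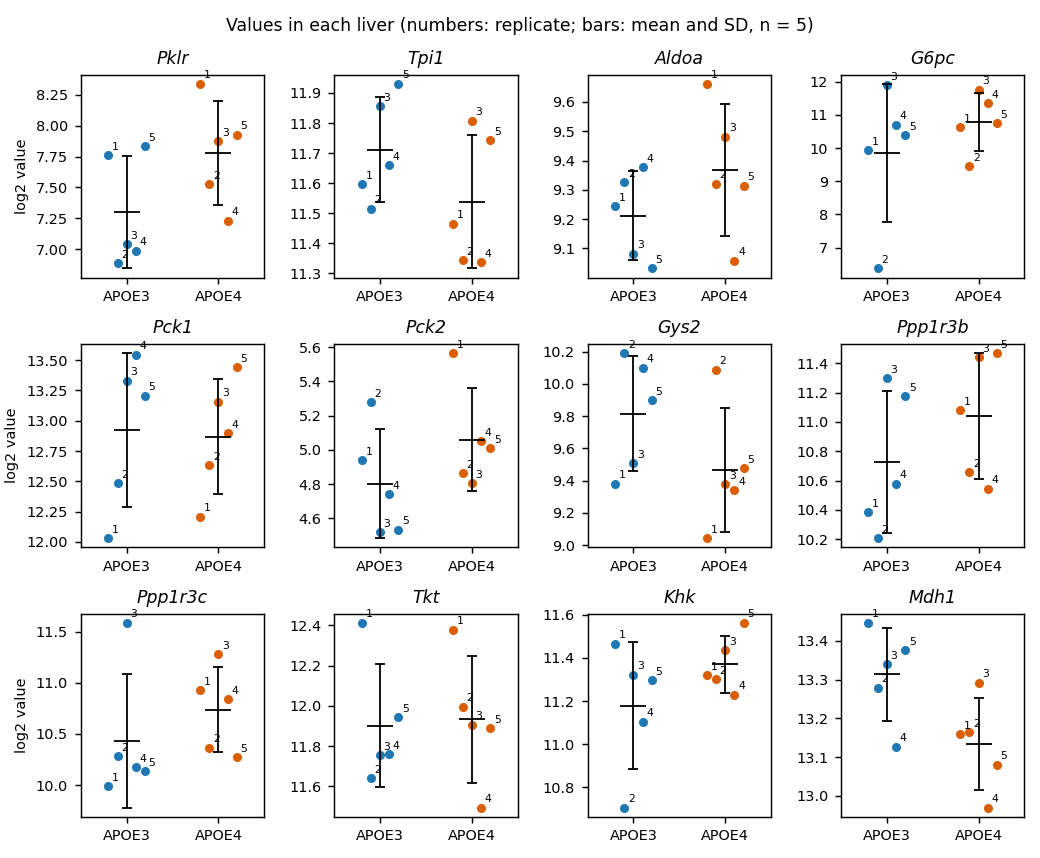
Log2 GCRMA level in each animal for genes named in the text, with 1 point per liver (replicate number beside it), APOE3 and APOE4 side by side and bars for mean and SD (n = 5); each panel has its own axis. G6pc spreads from 6.37 to 11.89, and in every gene shown the groups overlap.

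Of the 6 glycogen genes 4 had differences above 0 and 2 below, with a median of 0.083 log2. Gys2, the liver glycogen synthase, was at 9.38, 10.19, 9.51, 10.10 and 9.90 log2 in APOE3. In APOE4 it was at 9.04, 10.09, 9.38, 9.34 and 9.48. The lowest animal was APOE4 replicate 1, but APOE4 replicate 2 lay near the top, so the groups overlapped. The difference was -0.35 (SE 0.21, 95% interval -0.81 to 0.11, limma adjusted p = 0.697), and it was -0.51 to -0.24 when each animal was left out in turn.

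Ppp1r3b and Ppp1r3c encode subunits that bring protein phosphatase 1 to glycogen, where it activates the synthase. Ppp1r3b was at 10.39, 10.21, 11.30, 10.58 and 11.17 log2 in APOE3 and 11.08, 10.66, 11.44, 10.54 and 11.47 in APOE4, a difference of 0.31. Ppp1r3c was at 9.99, 10.28, 11.59, 10.17 and 10.14 in APOE3 and 10.93, 10.37, 11.28, 10.84 and 10.27 in APOE4. Replicate 3 had the highest Ppp1r3c level in each genotype, and the groups of both genes overlapped. The Ppp1r3c difference was 0.30 with all animals and 0.59 without APOE3 replicate 3, and the lowest adjusted p in limma with 1 animal left out was 0.686. Pygl, the phosphorylase that breaks glycogen down, was at 12.42, 12.08, 12.43, 12.17 and 12.49 in APOE3 and 12.46, 12.34, 12.56, 12.22 and 12.67 in APOE4, a difference of 0.13. Its groups overlapped. The branching enzyme gene Gbe1 and Ugp2, which makes the activated glucose for glycogen, differed by 0.03 and -0.07.

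The 3 measured pentose phosphate genes had differences near 0. Pgd, phosphogluconate dehydrogenase, the second NADPH-making step, was at 8.64, 7.87, 8.52, 8.33 and 8.62 log2 in APOE3 and 9.12, 8.12, 8.16, 7.94 and 8.31 in APOE4. Taldo1 was at 10.25, 9.43, 9.63, 9.74 and 9.81 in APOE3 and 9.99, 9.82, 9.65, 9.61 and 9.76 in APOE4. Tkt was at 12.41, 11.64, 11.76, 11.76 and 11.94 in APOE3 and 12.38, 12.00, 11.91, 11.50 and 11.89 in APOE4. Replicate 1 was the highest animal of each genotype in all 3 genes, and APOE3 replicate 2 and APOE4 replicate 4 were the lowest of their genotypes. The differences were -0.07 for Pgd, -0.0022 for Taldo1 and 0.03 for Tkt, with limma adjusted p of 0.953, 0.998 and 0.977. A second Tkt probe set differed by 0.32 (limma adjusted p = 0.769).

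Of the genes for fructose entry and pyruvate, Khk encodes ketohexokinase, which phosphorylates fructose, a sugar released from the sucrose of the diet. Khk was at 11.47, 10.71, 11.32, 11.10 and 11.30 log2 in APOE3 and 11.32, 11.30, 11.44, 11.23 and 11.56 in APOE4. Mdh1, the cytosolic malate dehydrogenase of the malate shuttle, was at 13.45, 13.28, 13.34, 13.13 and 13.38 in APOE3 and 13.16, 13.16, 13.29, 12.97 and 13.08 in APOE4. Khk was lowest in APOE3 replicate 2, Mdh1 lowest in APOE4 replicate 4, and both genes' groups overlapped. Khk differed by 0.19, or by 0.07 without APOE3 replicate 2, and Mdh1 by -0.18 (95% interval -0.39 to 0.03, limma adjusted p = 0.664). The other tested Mdh1 probe sets differed by -0.0004, -0.03 and -0.10. Pdha1, a catalytic subunit of pyruvate dehydrogenase, was at 9.85, 9.30, 9.77, 9.50 and 9.72 in APOE3 and 9.49, 9.75, 9.73, 9.62 and 9.95 in APOE4, with overlapping groups.

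In genes of the same pathways outside the set, none passed for genotype. Of 123 listed, 86 were tested, 58 with differences above 0 and 28 below, with a median of 0.058 log2. In limma 0 passed (smallest adjusted p = 0.584). An unadjusted limma p under 0.05 was found for 8 of the 86, beside 8.00% of all tested probe sets. The list of pyruvate dehydrogenase, pyruvate transport and shuttle genes held 5 of the 8 among its 21 tested genes, all with differences above 0, where 5.53% of all tested probe sets were at such a p in that direction. They were Gpd1 (0.57) and Gpd2 (0.57), the cytosolic and mitochondrial glycerol phosphate dehydrogenases, Pdhb (0.26) and Pdhx (0.43), subunits of the pyruvate dehydrogenase complex, and Pdk4 (1.39), a kinase that inhibits it. APOE3 replicate 2 was the lowest animal in Gpd1, Gpd2 and Pdhx. Without APOE3 replicate 2 and APOE4 replicate 4, 18 of the 21 differences were above 0, against 17 with all animals, and their median was 0.11 against 0.09. Of the 5 genes, Pdhb (0.29) then had an unadjusted limma p under 0.05. Pdhx was at 0.33, Gpd2 at 0.37, Gpd1 at 0.35 and Pdk4 at 0.89. The share of all tested probe sets at such a p without those animals is not given here. The other 3 of the 8 were Ppp1r3e, a further glycogen-targeting subunit (0.35), Irs1, an adaptor of the insulin receptor (0.61), and Trib3, a pseudokinase that binds Akt (-0.60). The glycogen list also held Gsk3b, a kinase that inhibits glycogen synthase (0.25), and had 10 of 14 differences above 0. Further glycolysis and gluconeogenesis genes had 6 of 11 above 0, with Adpgk, an ADP-dependent glucokinase, at 0.21 and Pfkfb2 at -0.42. Further pentose phosphate genes had 6 of 8, with the lactonase gene Pgls at 0.25 and the epimerase gene Rpe at -0.12, and fructose, polyol and galactose genes 4 of 4, with Galt at 0.24 and Pmm2 at 0.33. In these last 3 lists 0 genes had an unadjusted limma p under 0.05.

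The spread between animals was examined within genotype, by subtracting each genotype's mean from each gene. Members tended to lie on the same side in the same liver. APOE3 replicate 2 was above its genotype's mean in 3 of 27 genes and APOE4 replicate 4 in 4 of 27, while the other 8 livers were above in 11 to 19. Over all tested genes those livers were above the mean in 55.5% and 50.6%. The mean deviation of the 27 genes was -0.30 log2 in APOE3 replicate 2 and -0.17 in APOE4 replicate 4, and it was -0.09 to 0.14 in the others. These are the livers with the largest Gapdh 3′ minus 5′ difference of each genotype, and also of Actb (3.20 and 2.97 log2, against 2.22 to 2.85 in the other 8). Gapdh is itself a listed gene, though not among the 27. Its 3′ control probe set was also lowest in those livers, at 12.37 and 12.31 log2 against 12.57 to 12.75 in the other 8.

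**Figure D3:**
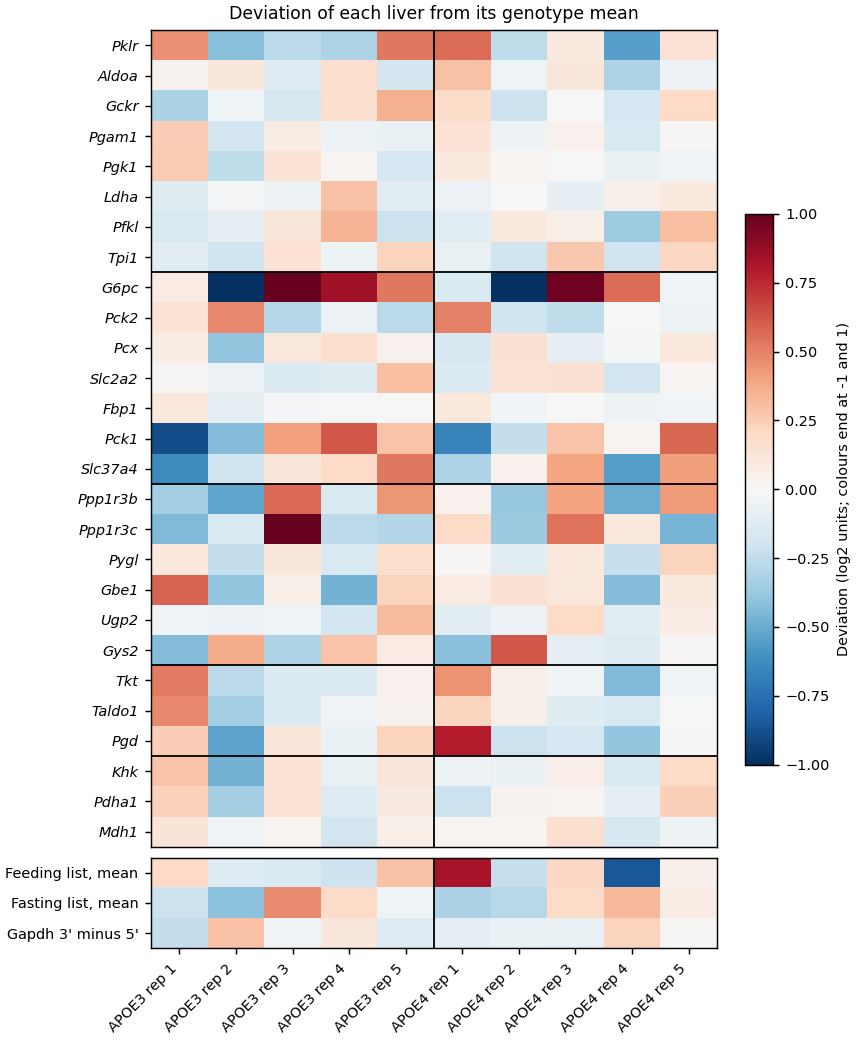
Deviation of each tested gene from its own genotype's mean in each of the 10 livers, in log2 units by colour, with genes in rows by role and animals in columns; the lower rows give the mean of the feeding and fasting lists and the Gapdh 3′ minus 5′ difference, and colours end at -1 and 1. APOE3 replicate 2 and APOE4 replicate 4 are low for most genes, with 3 and 4 of 27 above the mean.

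Pairs of members correlated more often than pairs of genes in general, as a description over 10 livers that share arrays. Of the 351 pairs, 40 (11.4%) had r of at least 0.7, beside 3.27% of all pairs of tested genes, and 4 (1.14%) had r of -0.7 or lower, beside 2.83%. The median r was 0.212 beside 0.0081. Without APOE3 replicate 2 and APOE4 replicate 4 the median r of members was 0.013 beside 0.010 for all genes, with 9.40% of member pairs at or above 0.7 beside 6.05%. Strongly negative pairs, at -0.7 or lower, were then 20 (5.70%) beside 5.48%. Most of the shift in the median r was thus seen only with those 2 livers included. Gys2, Ldha and Pck2 ran against the rest, with median r to the other members of -0.325, -0.244 and -0.210, and Khk had the highest, 0.523. The highest r of the 351 was 0.950 between Ppp1r3b and Tpi1, followed by Khk and Pdha1 (0.909), Fbp1 and Tkt (0.907), and Fbp1 and Taldo1 (0.907). The lowest was -0.853 between Ldha and Mdh1.

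**Figure D4:**
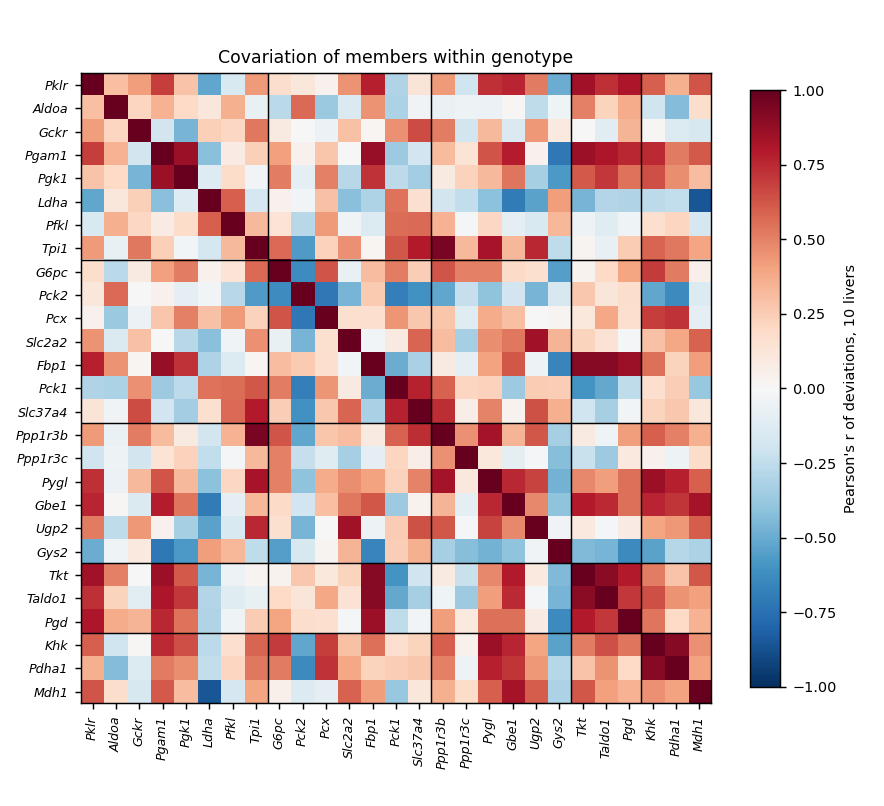
Pearson's r between the within-genotype deviations of each pair of the 27 tested genes over 10 livers, by colour from -1 to 1, with genes grouped by role (black lines). The pentose phosphate block is positive throughout, and Gys2 and Ldha are negative with most others.

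Pairs joined by a shared step or regulator were tested one by one, by exact permutation of the animals within each genotype (all pairings, two-sided). The permutation takes same-numbered livers of both genotypes as unrelated. Yet 5 of 10 animals correlated best with their own number, where 2 would at random. If a number marks a shared batch, which no label says, the permutation p-values may be too small. Of 16 pairs chosen, 12 had both genes tested, and p-values were adjusted over these 12 by Benjamini-Hochberg. The pairs were chosen with earlier results of these data known, and the adjustment does not allow for that choice. Only Taldo1 and Tkt, which act in turn on the same sugar phosphates, passed, with Pearson's r = 0.900 (exact permutation p = 0.00021, adjusted 0.0025) and Spearman's rho = 0.952 (adjusted 0.0042) over 10 livers. Both genes lay on the same side of the genotype mean in 5 of 5 APOE3 and 5 of 5 APOE4 livers. Without the animals farthest from the median Taldo1 deviation, APOE3 replicates 1 and 2, r was 0.891 but the exact permutation p adjusted to 0.117. Without APOE3 replicate 2 and APOE4 replicate 4, r was 0.954 with an exact permutation p adjusted to 0.0625. Leaving out 1 animal at a time gave r of 0.828 to 0.945, past the threshold each time. The pair was not tested without replicate 1 of both genotypes, the livers with the highest sums of adipocyte markers. Some pairs of members that were not tested had a higher r, among them Ppp1r3b and Tpi1 (0.950) and Fbp1 and Tkt (0.907).

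**Figure D5:**
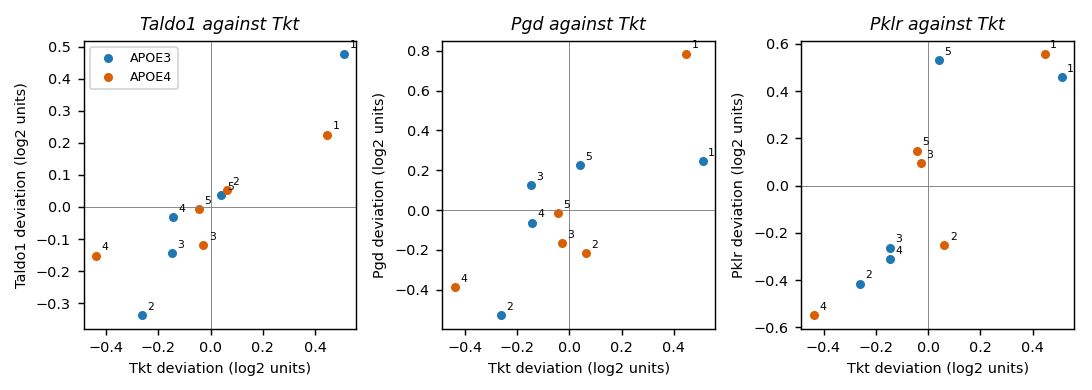
Within-genotype deviations in log2 units of Taldo1 (left), Pgd (middle) and Pklr (right) on the vertical axis against Tkt on the horizontal axis, with 1 point per liver, colour by genotype and replicate numbers beside the points. The Taldo1 points lie along a rising line (r = 0.900), with replicate 1 of each genotype at the upper end, and the Pgd points scatter more (r = 0.789).

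The other 11 pairs did not pass. Pgd and Tkt had r = 0.789 and rho = 0.685 (exact permutation p = 0.019 and 0.045, adjusted 0.114 and 0.224), and r was 0.690 without APOE4 replicate 1 and APOE3 replicate 2. All 3 pairs of the measured pentose phosphate genes had r of at least 0.7. Pklr and Khk, both sugar-handling genes, had r = 0.598 (exact permutation p adjusted to 0.323), and the gluconeogenic pair Pck1 and G6pc had r = 0.509 (adjusted to 0.367). Pck1 and Pklr, which work in opposite directions, had r = -0.299, and it was 0.403 without replicate 1 of both genotypes. That r was -0.540 without APOE3 replicate 2 and APOE4 replicate 4, and -0.468 to -0.058 with 1 animal left out at a time. Synthesis and breakdown of glycogen, read by Gys2 and Pygl, gave r = -0.469, and the phosphatase subunits Ppp1r3b and Ppp1r3c gave r = 0.455 and rho = 0.176. The latter r was 0.095 without APOE3 replicate 3, so it rests on that animal. G6pc and its partner carrier Slc37a4 gave r = 0.246. With 10 livers such values have wide errors.

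The livers also differed in transcripts that follow feeding. The 10 tested feeding and sugar response genes had a mean deviation of 0.82 log2 in APOE4 replicate 1, with 10 of 10 above the genotype's mean, and of -0.85 in APOE4 replicate 4, with 0 of 10 above; the other 8 livers lay between -0.23 and 0.29. Fasn, the fatty acid synthase, ran from 8.01 to 10.64 log2 within APOE4. The pentose phosphate genes were not on that list. Their mean deviation was 0.49 in APOE4 replicate 1 and -0.33 in APOE4 replicate 4. In APOE3 replicates 1 and 2 it was 0.41 and -0.38, where the feeding list was at 0.20 and -0.13. The feeding list in APOE3 was, however, highest in replicate 5 (0.29) and lowest in replicate 4 (-0.21). There the pentose phosphate genes were at 0.10 and -0.08. The 9 fasting response genes stood highest in APOE3 replicate 3 (0.47) and lowest in APOE3 replicate 2 (-0.41), the livers with the highest and the lowest G6pc. This match was not seen within APOE4. There the fasting list was highest in replicate 4 (0.33) and lowest in replicate 1 (-0.31). G6pc in APOE4 was highest in replicate 3 (11.75) and lowest in replicate 2 (9.46). Between genotypes, 0 genes of the feeding, fasting and hypoxia response lists passed in limma. Only 1, Pdk4 of the fasting list, had an unadjusted limma p under 0.05, beside 8.00% of all tested probe sets. The feeding list had 9 of 10 differences above 0 with a median of 0.31 log2, led by Fasn (0.68), Elovl6 (0.58) and Mid1ip1 (0.45). The fasting list had 4 of 9 above 0 and a median of -0.07, with Cpt1a at -0.24 and Cyp4a14 at -0.15. Without APOE3 replicate 2 and APOE4 replicate 4 the feeding median was 0.47, with 9 of 10 above 0, 2 genes at an unadjusted limma p under 0.05, Mid1ip1 (0.89) and Srebf1 (0.85), and Fasn at 0.95. The fasting list then had 1 of 9 above 0 with a median of -0.16, and 0 genes at such a p, Pdk4 being at 0.89. The share of all tested probe sets at such a p without the same animals is not given here. The hypoxia list had 5 of 11 above 0 and a median of -0.01, with Hmox1 at -1.16, P4ha1 at 0.44 and Egln3 at 0.19. The part of feeding state in the deviations between livers was not tested.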

How the data were processed

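Values came from the authors' deposited log2 table. GCRMA (2.12.1) was run in R (2.7.1), according to the submitters' processing notes. That method corrects background by probe sequence, normalizes arrays against each other and summarises probes into probe sets, and it gives undetected transcripts low values that vary little. Any probe filter is not given in the sources used here. The number of arrays limits the precision.

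Groups came from the sample titles. Of 45101 probe sets, 64 controls were left out. The 14732 with a log2 mean no lower than 4 entered limma (3.58.1, R 4.3.3), with lmFit and eBayes, two-sided, without covariates, adjusted by Benjamini-Hochberg over all of them at a threshold of 0.05. The fit was tested on simulated data. Correlations were computed on deviations from the genotype mean (Python 3.11.15). Values per animal are given by a rule for, in each role, up to 3 members with the smallest unadjusted p, the member with the largest SD within genotypes, and pairs that passed; of other lists, up to 2 genes with the smallest p are named, or 3 for feeding, fasting and hypoxia. Other genes were named after their values were seen. Members, lists, pairs and this rule were chosen with earlier results of these data known. Alternatives were other filters, scalings, variance settings and probe rules, a replicate block, and leaving out animals. Leaving out the animals with the largest Gapdh 3′ minus 5′ difference was chosen after seeing the data.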

Additional observations from a re-analysis of the deposited data

Results flagged for a closer look

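In each genotype the highest and lowest animal of the 29 measured genes was set against the rest by Dixon's test for 5 values. Of 58 such groups 5 held an animal that stood apart, where chance alone gives about 1 in 20, or 2.9 groups. In glycogen genes, the Ppp1r3c level was 11.59 log2 in APOE3 replicate 3, with the next animal at 10.28, and the branching enzyme gene Gbe1 was 9.40 in APOE4 replicate 4, with the next at 9.92. In gluconeogenesis, Pcx was 10.88 in APOE3 replicate 2, with the next at 11.30, and Fbp1 was 13.08 in APOE4 replicate 1, with the next at 12.96. Ldha, the lactate dehydrogenase, was 12.65 in APOE3 replicate 4, with the next at 12.34. No further test of these animals was made.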

How the results depend on the processing

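Under every alternative tried, 0 members passed the adjusted threshold. A change of direction was looked for only in called results, so it could not be counted for any member. With 1 animal left out, some member differences changed sign, such as Gbe1 (-0.085 to 0.178 log2) and Pck1 (-0.28 to 0.11). Others did not, such as Pklr (0.34 to 0.62). The count of all probe sets called, 12, became 5 with a mean log2 of at least 6, 7 with 1 probe set per gene and 7 with the mean over a gene's probe sets, where fewer features were tested, and it was 8 to 14 when each animal was left out in turn. So left out, the median difference of the members was -0.00071 to 0.108 log2, that of the gluconeogenesis members 0.00092 to 0.111 and that of the pentose phosphate members -0.087 to 0.117, and 9.40% to 15.95% of member pairs had r of at least 0.7. The count of fixed pairs called, 1, became 0 without the animals farthest from the median and 0 without the pair of animals with the largest Gapdh 3′ minus 5′ differences; both use 8 animals, with fewer pairings to permute. Replicate numbers are shared between the genotypes in the labels, but no label ties a number to a shared litter or batch, and same-numbered animals had correlations of -0.050 to 0.451, not all above 0.1, so they were not treated as pairs. Still, 5 of 10 animals correlated best with their own number, where 2 would at random, a hint of pairing from the data that the design does not give. With a replicate block 11 probe sets and 0 members were called, and the median member difference was 0.044. With 5 animals per genotype, the intervals given cross 0, and true differences of any size inside them remain possible.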
